A study of Drosophila melanogaster with 24 samples.

Results

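Chitin, the sugar polymer of the insect cuticle, tracheal lining and midgut lining, is built, modified and removed by a small set of protein families, and the RNA of these families was followed here through 8 stages of the Drosophila melanogaster life cycle. The probes were chosen by name: the single gene symbol of the platform annotation had to begin with Cht or Cda and a digit, with obst-, Idgf or Peritrophin, or had to be one of serp, verm, kkv, knk, rtv, mmy and Gasp. Of the 23808 probes, of which 13455 had 1 symbol, 41 probes of 34 genes met this rule. They were 2 synthesis probes (2 genes), 10 deacetylase probes (5 genes), 11 probes of chitin-binding proteins (11 genes), 12 chitinase probes (10 genes) and 6 probes of imaginal disc growth factors (6 genes). The rule found no probe named knk, rtv or obst-H. All 41 probes were measured on all 23 arrays used, and no probe was removed for a low value. Several probes of 1 gene were kept apart and numbered, and they are not replicates of each other.

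Chitin is polymerised at the apical membrane of epidermal and tracheal cells by a chitin synthase, which uses UDP-N-acetylglucosamine as its building block. Secreted deacetylases and chitin-binding proteins then shape the fibres in the extracellular matrix, and at each moult chitinases digest the old cuticle beneath which a new one is laid down. In Drosophila a cuticle is made in the late embryo, at the larval moults, at pupation and for the adult, and the embryonic tracheal tubes carry a transient chitin filament that controls their length. The imaginal disc growth factors belong to the chitinase fold family but lack chitinase activity.

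RNA of each stage was hybridised on 2-colour spotted arrays together with RNA of embryos at 0-4 h, the common reference. The stages were embryos at 4-8 h, at 8-12 h and at 12-16 h, pooled larvae of different stages, pupal stages 1, 2 and 3, and young adults of both sexes, with 3 arrays each (a, b and c). Strain and genotype were not given in the labels, and all groups were of whole animals without a treatment, so fewer cells of a type and less RNA per cell cannot be told apart. Embryos came from egg lays of several hours, so each embryonic group spans its whole interval, and the pooled larvae mix moulting and intermoult animals in proportions the labels do not give. The labels speak of independent experiments without naming separate animals or extracts, and the p-values therefore reflect how far these arrays differed, part of which may be technical. Whether 1 reference preparation served all arrays was not stated, so how far the ratios carry a spread between reference preparations is unknown. Array c of pupal stage 1 held a signal of 1 channel, not a ratio, and was not used, so that stage rests on 2 arrays, both with the stage in Cy5.

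Every value below is a log2 ratio of the stage over the 0-4 h embryo, relative to the median probe of the same array. Values of single arrays are given as measured. Stage values with a standard error (SE) are from a limma fit to all 23 arrays with a term for the dye. They can thus differ from the mean of the arrays, and at pupal stage 1, with both arrays in Cy5, by the whole dye term. There obst-I stood at 1.72 in the fit and at 0.995 in the mean of its arrays, and Idgf4 at -1.52 and -0.97. A probe passed when the p-value adjusted over all 23808 probes by Benjamini-Hochberg was under 0.05. Without the centring on the median probe, the median of all probes lay at 0.65, -0.97, -1.60, -1.08, -1.43, -1.76, -0.37 and -0.49 for the 8 stages in order of development. Whether total messenger RNA of an animal shifted in that way cannot be told apart from labelling and scanning. The arrays hold no channel intensities, so nothing can be said of signal over background, and several families here have close paralogs (Cht4, Cht8, Cht9 and Cht12, Peritrophin-15a and Peritrophin-15b, Idgf1 to Idgf3) whose signals on one another's probes were not tested.

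Of the arrays, 4 stood apart by a narrow spread of all probes: embryo 4-8 h a and b, embryo 8-12 h a and larvae a had standard deviations from 0.82 to 0.97, where the other arrays had 1.07 to 1.82. Arrays a and b of pupal stage 2 correlated at 0.90 across probes and those of pupal stage 3 at 0.89, above the other pairs within a stage (0.75 at most). Pairs of 1 stage with opposite dyes had a median correlation of 0.40 (14 pairs, the lowest at 0.0828 between 4-8 h a and c), where pairs of different stages with the same dye had 0.49 (113 pairs). The fit holds a dye term, and without it 27 of the 41 chitin probes passed the F-test described below. The stage labels were checked on genes of known timing. The yolk protein genes Yp1 and Yp2, markers of adult females, stood at 3.73 ± 0.64 and 4.39 ± 0.32 (SE, n = 3) at pupal stage 2, at -0.19 and 0.24 at pupal stage 3, and at 3.52 and 6.22 in adults. All 3 arrays of pupal stage 2 showed this, with Yp2 at 4.05, 4.17 and 4.85, and the second Yp2 probe stood at 2.98 there. Of 6 adult marker probes, 5 were higher at pupal stage 2, 1 at pupal stage 3 and 5 in adults. The arrays labelled pupal stage 2 thus held adult female markers that those labelled pupal stage 3 did not. Of 4 probes listed as pupal markers, 2 were higher at pupal stage 1, 2 at pupal stage 2 and 1 at pupal stage 3. Acp65Aa, named for the adult cuticle, was highest at pupal stage 2 (6.86), with 5.57 at pupal stage 3 and 4.06 in adults. Edg78E passed at pupal stage 2 (1.52), but was highest at pupal stage 1 (3.90) and also passed at 12-16 h (1.35). Pcp (1.06) and Edg84A (0.78) missed the test at pupal stage 2. Of 11 larval marker probes, 10 were higher in larvae and 10 at pupal stage 1 (all probes: 8.76% and 7.58%). Their median was 3.89 in larvae and 5.51 at pupal stage 1, so they do not set larvae apart from pupal stage 1. The larval glue gene Sgs3 was also higher at 12-16 h, at 4.60 and 3.24 on its 2 probes, with array b highest on both (7.78 and 5.99). The Sgs3 probes also stood above the reference on 12-16 h array a (4.31 and 0.64) and array c (1.82 and 2.87), so leaving out array b does not remove this signal. Without array b, 26 chitin probes passed at that stage, as many as with it, though 1 of the earlier 26 calls ended. The part of the stage markers in the values of the chitin genes was not tested.

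The RNA of 29 of the 41 chitin probes differed among the 8 stages. The F-test over the stages thus passed for 70.7% of the probes, where 21.0% of all probes and 27.7% of those with 1 symbol passed. By role, 9 of 10 deacetylase probes passed, 8 of 12 chitinase probes, 5 of 6 growth factor probes, 6 of 11 chitin-binding probes and 1 of 2 synthesis probes. The median range between the lowest and highest stage was 3.46 for the 41 probes, against 1.84 for all probes. The stage of the highest value was 12-16 h for 15 probes (26.6% of all probes), pupal stage 1 for 10 (12.9%), adults for 8 (14.9%), larvae for 4 (10.5%), pupal stage 2 for 2 (5.08%), and pupal stage 3 (8.67%) and 4-8 h (11.3%) for 1 each. Among the 29 probes past the F-test it was 12-16 h for 14 and adults for 6, where 35.2% and 22.3% of all probes past that test were highest at those stages. These stages are those of the fitted values. By the mean of the arrays, obst-G and Peritrophin-A were highest in adults, obst-I at pupal stage 3 and Cht4 in larvae, in place of pupal stage 1. The lowest fitted value lay at 4-8 h for 17 of the 41 probes and for 11.4% of all probes. Leaving out the 4 arrays with a narrow spread left 23 probes past the F-test, and leaving out pupal stage 2 left 27, without Cda9 and Gasp.

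**Figure D1:**
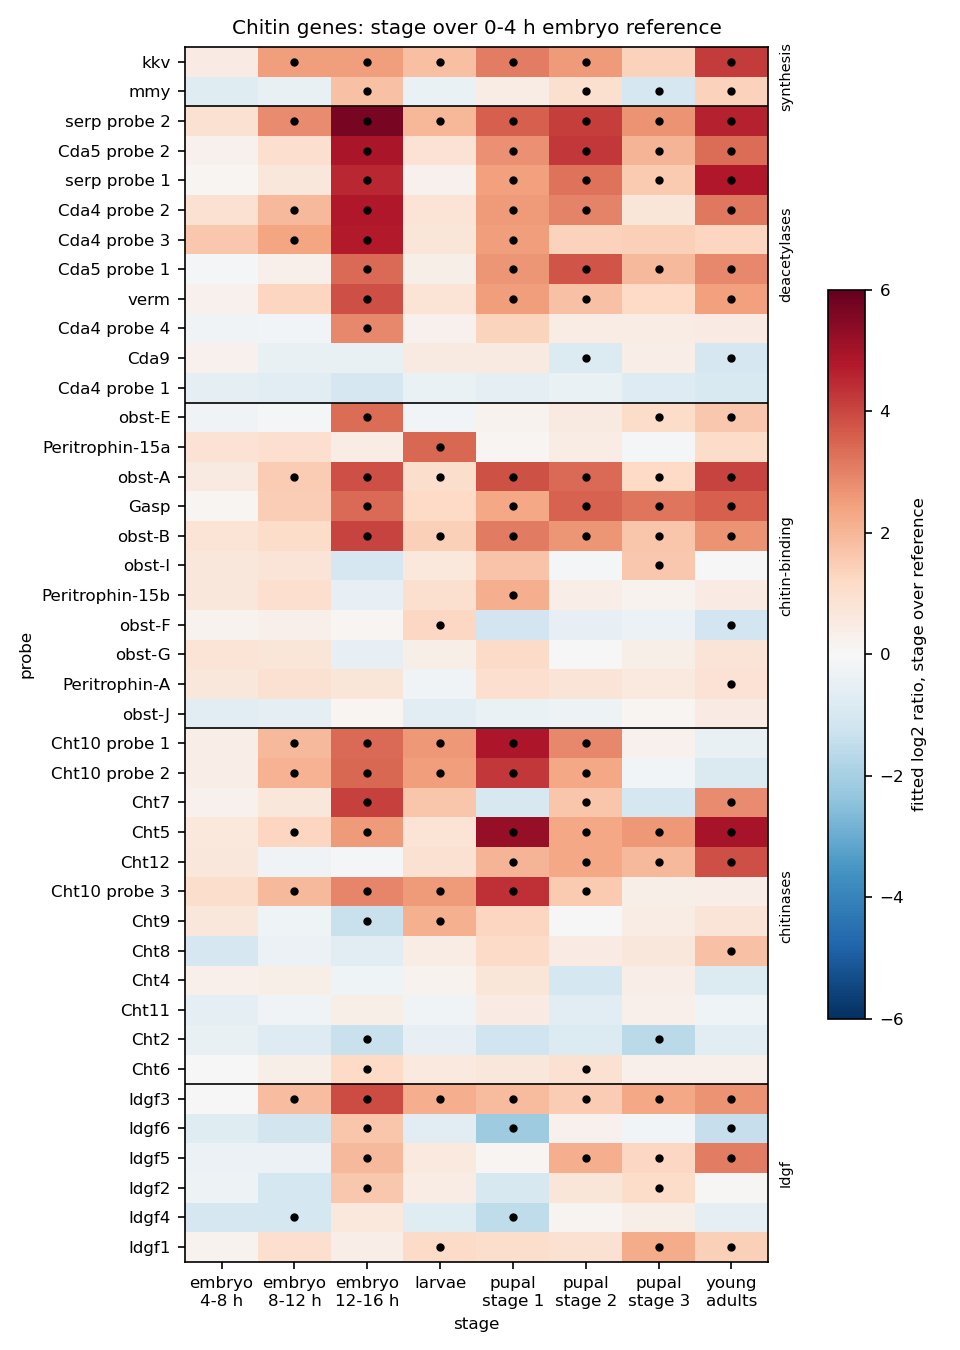
Fitted log2 ratio of stage over 0-4 h embryo (colour, scale from -6 to 6) for the 41 probes (rows, grouped by role and sorted by their range within the role) in 8 stages (columns, in order of development). A dot marks a value past the test against the reference; the 12-16 h column holds 26 dots, and the 4-8 h column none.

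Counted against the reference, higher calls outnumbered lower calls at each stage from 8-12 h on, and at 12-16 h they took in 24 of the 41 probes. At 4-8 h, 0 of 41 probes passed in limma, where 7.43% of all probes did (1.49% higher, 5.94% lower), and 6 had an unadjusted p under 0.05. With scaled arrays 4 passed there, with close duplicate spots only 5, and with the 4 narrow arrays as a block 1. The 4-8 h array with the opposite dye, c, correlated with a and b at 0.0828 and 0.123. At 8-12 h, 10 probes were higher and 1 lower, where 9.54% of all probes passed (3.83% higher, 5.71% lower). At 12-16 h, 24 were higher and 2 lower, where 29.3% of all probes passed (16.8% higher, 12.5% lower). In larvae 12 were higher and 0 lower, where 23.5% of all probes passed (8.76% higher, 14.7% lower).

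In the pupal stages and adults the split toward higher values went on, while among all probes more were lower than higher. At pupal stage 1, 18 were higher and 2 lower (all probes: 23.8% passed, 7.58% higher and 16.2% lower). At pupal stage 2, 20 were higher and 1 lower (25.3% passed, 9.30% higher and 16.0% lower), and at pupal stage 3, 15 were higher and 2 lower (29.0% passed, 9.53% higher and 19.5% lower). In adults 20 were higher and 3 lower (34.4% passed, 15.2% higher and 19.2% lower). Of the 41 probes, 33 were higher at 1 stage or more, 7 were lower at 1 stage or more, and 5 passed at no stage. The shares of all probes for these counts over 8 tests were not computed, so the counts cannot be judged against them. With the 2 near-identical arrays of each late pupal stage averaged to 1, 7 probes passed at pupal stage 3. With only the larval arrays in the fit, and no dye term, 0 passed in larvae.

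The direction depends on the centring. On uncentred values the higher and lower calls were 1 and 3 at 8-12 h, 15 and 12 at 12-16 h, 1 and 6 in larvae, 6 and 7 at pupal stage 1, 6 and 12 at pupal stage 2, 5 and 1 at pupal stage 3, and 15 and 3 in adults. Each statement of higher or lower below is thus relative to the median probe. Shares of all probes on uncentred values are not given here, so the uncentred counts cannot be judged against them. Leaving out single arrays kept 22 of the 26 calls at 12-16 h and 19 of the 23 in adults in every case. It kept 2 of 11 calls at 8-12 h (Cht10 probe 2 and serp probe 2), 7 of 12 in larvae, 9 of 20 at pupal stage 1, 13 of 21 at pupal stage 2 and 8 of 17 at pupal stage 3. At 8-12 h, leaving out array c ended 7 of the 11 calls, array a 5 and array b 4. At pupal stage 1 array a ended 10 of the 20 calls and array b 8. Counting all probes that then passed, 8-12 h had 7 without array b and 4 without c, larvae 7 without b or c, pupal stage 1 10 without a, pupal stage 2 14 without b and 13 without c, and pupal stage 3 10 without a.

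**Figure D2:**
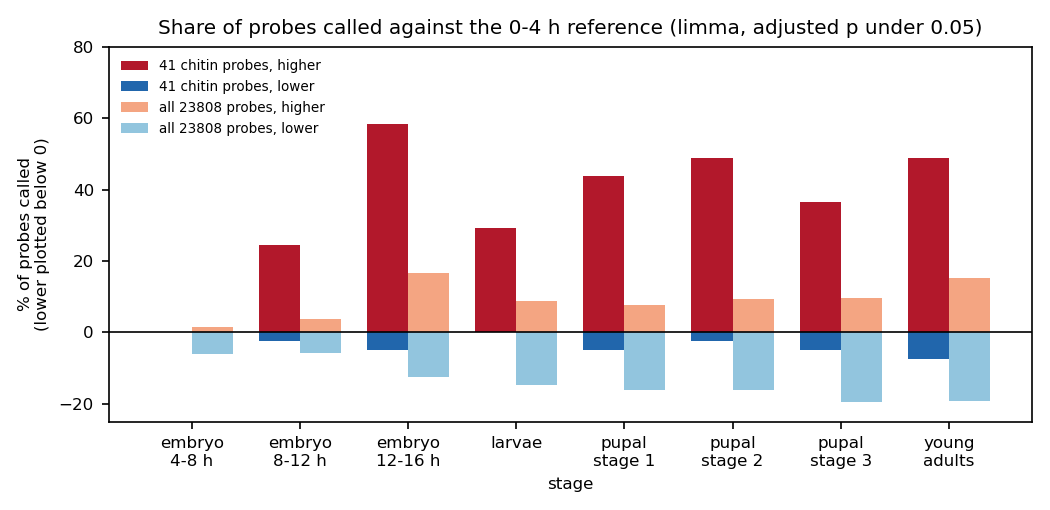
Share of probes past the test against the 0-4 h embryo (vertical axis, %, lower calls drawn below 0) at each of the 8 stages, for the 41 chitin probes (dark bars) and all 23808 probes (light bars). The dark bars lie mostly above 0 at every stage from 8-12 h on, where the light bars are split.

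Between successive stages, most calls lay at 2 turns, into the 12-16 h embryo and out of it, and the same held among all probes. From 4-8 h to 8-12 h, 0 probes passed in limma (0.0126% of all probes did, 0.00840% higher and 0.00420% lower), and 5 had an unadjusted p under 0.05. From 8-12 h to 12-16 h, 16 probes rose and 0 fell (5.11% of all probes passed, 3.98% higher and 1.13% lower). From 12-16 h to larvae, 2 rose and 14 fell (10.2% passed, 2.63% higher and 7.60% lower). The later steps held few calls, among all probes too. From larvae to pupal stage 1, 2 rose and 1 fell (0.995% of all probes passed, 0.458% higher and 0.538% lower). From pupal stage 1 to 2, 1 fell (0.638% passed, 0.449% higher and 0.189% lower), and from pupal stage 2 to 3, 1 fell (0.340% passed, 0.0294% higher and 0.311% lower). From pupal stage 3 to adults 5 rose (1.18% passed, 1.10% higher and 0.0882% lower). Pupal stage 2 and the 12-16 h embryo differed in 4 probes, all lower in the pupa (7.54% of all probes passed, 2.24% higher and 5.30% lower). These contrasts rest on the spread shared by all 8 stages and on the dye term. With only the arrays of both stages in the fit, and no dye term, 0 chitin probes passed in each of them. The parts of these 2 changes in that loss were not tested. Without centring, 0 of the 16 rising probes passed, the step to larvae kept 2 higher and 6 lower, and the later steps had none.

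The 2 synthesis genes are the chitin synthase kkv and mmy, the enzyme that makes UDP-N-acetylglucosamine. The kkv arrays gave -0.40, 0.07 and 1.26 at 4-8 h, 2.27, 2.22 and 2.38 at 8-12 h, and 3.04, 1.99 and 3.05 at 12-16 h. In larvae they spread from -1.08 through 2.61 to 4.45. They gave 2.44 and 2.49 at pupal stage 1, then 2.90, 3.33 and 1.99, then 0.97, 1.28 and 1.32 at pupal stage 3, and 3.33, 3.77 and 6.02 in adults. The 8-12 h arrays all lay above the 4-8 h arrays, and the larval arrays overlapped those of 7 of 7 other stages. The kkv probe was higher than in the reference at 6 of 8 stages, most in adults (4.17 ± 0.58, SE, n = 3, adjusted p = 1.26e-05, 18.1-fold).

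The kkv call at 12-16 h, 2.50 ± 0.58, ended without array c (1.78, adjusted p = 0.0813), and the one in larvae, 1.80 ± 0.58, without array c (0.77) or array b (1.68). At 8-12 h the value of 2.49 ± 0.58 ended without array a (2.30) or c (2.24), and at pupal stage 1 the value of 3.05 ± 0.74 without either array. The F-test over stages missed the threshold for kkv (adjusted p = 0.0552). It passed without larvae a (0.00516), larvae c (0.00911), 12-16 h b (0.0448) or 12-16 h c (0.0463).

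The mmy arrays gave -0.90, -0.04 and -0.93 at 4-8 h, -0.54, -0.79 and 0.33 at 8-12 h and 1.46, 2.14 and 1.35 at 12-16 h. In larvae they gave -0.58, -0.29 and -0.58, at pupal stage 1 0.56 and 0.88, at pupal stage 2 0.33, 0.62 and 1.64, at pupal stage 3 -0.47, -0.48 and -1.75, and in adults 1.77, 0.93 and 1.16. The 12-16 h arrays lay above all arrays at 8-12 h and in larvae, and the adult arrays above all arrays of pupal stage 3. The mmy probe rose by 2.16 ± 0.44 into 12-16 h (adjusted p = 0.00575), fell by 2.13 ± 0.43 to larvae (adjusted p = 0.00355) and rose by 2.36 ± 0.44 from pupal stage 3 to adults (adjusted p = 0.0092). That last call ended without array c of pupal stage 3 (2.04, adjusted p = 0.0825). The F-test gave an adjusted p of 0.000503, with the highest value of 1.74 at 12-16 h and the lowest of -0.99 at pupal stage 3. The value at pupal stage 3 itself ended without array c (-0.68).

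Deacetylases remove acetyl groups from chitin and are needed for its fibre order. Both serp and verm, neighbours in the genome with no protein-coding gene between them, are known for limiting the length of the embryonic tracheal tubes. At 12-16 h 8 of 10 deacetylase probes, which stand for 5 genes, were higher (16.8% of all probes). The 10 had a median of 4.22 (all probes: 0.08), and Cda9 and Cda4 probe 1 were those not higher. From 8-12 h to 12-16 h 7 of the 10 rose (3.98% of all probes), and from 12-16 h to larvae 8 fell (7.60%). At pupal stage 1, 7 were higher (7.58% of all probes), and in adults 6 (15.2%).

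For serp probe 2 the arrays gave 1.14, 0.43 and 1.41 at 4-8 h, 2.91, 2.18 and 3.67 at 8-12 h and 5.05, 5.75 and 6.08 at 12-16 h. In larvae they gave 1.62, 2.93 and 1.24, at pupal stage 1 3.43 and 4.23, and at pupal stage 2 3.66, 4.14 and 4.46. At pupal stage 3 they gave 3.11, 3.05 and 2.13 and in adults 5.34, 4.00 and 4.33. The 3 embryonic groups did not overlap and stepped upward, and the larval arrays lay below all those at 12-16 h. This probe was higher at 7 of 8 stages, with 5.71 ± 0.36 at 12-16 h (adjusted p = 2.9e-09, 52.2-fold). It rose by 2.87 ± 0.52 into that stage and fell by 3.70 ± 0.51 to larvae (adjusted p = 0.00234 and 0.000128).

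For serp probe 1 the arrays gave 0.01, -0.20 and 0.54 at 4-8 h, -0.16, 0.98 and 1.19 at 8-12 h, 4.70, 4.44 and 4.50 at 12-16 h and 0.08, 0.41 and 0.34 in larvae. They gave 2.12 and 2.76 at pupal stage 1, 2.73, 3.08 and 3.94 at pupal stage 2, 1.91, 1.73 and 1.11 at pupal stage 3 and 4.54, 3.75 and 6.08 in adults. The 12-16 h arrays were close together and far above both neighbouring stages. The rise into 12-16 h was 3.88 ± 0.54 (adjusted p = 0.00023), the fall to larvae 4.27 ± 0.53 (log2 -4.27, adjusted p = 5.35e-05) and the rise from pupal stage 3 to adults 3.20 ± 0.54 (adjusted p = 0.00507), and these 3 calls held without any single array. Adults had the highest value of this probe, 4.79 ± 0.38. Over the 8 stage values the 2 serp probes correlated at 0.94, which describes 2 spots of 1 gene on the same arrays.

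The verm arrays gave -0.16, -0.23 and 0.96 at 4-8 h, -0.37, 1.17 and 2.85 at 8-12 h, 3.97, 4.21 and 3.71 at 12-16 h, and 0.34, 1.52 and 0.82 in larvae. They gave 2.16 and 2.31 at pupal stage 1, 1.67, 2.09 and 1.83 at pupal stage 2, 1.31, 1.61 and 0.36 at pupal stage 3, and 1.05, 2.92 and 3.65 in adults. The 12-16 h arrays again lay above all arrays of both neighbouring stages. The verm probe fell by 3.08 ± 0.67 to larvae (adjusted p = 0.00583). Its rise into 12-16 h, 2.58 ± 0.68 (adjusted p = 0.0297), ended without array a (1.90) or b (2.33) at 8-12 h or b (2.54) or c (2.53) at 12-16 h. The lowest stage value was 0.27 at 4-8 h and the F-test gave an adjusted p of 0.00975. The verm profile correlated with serp probe 1 at 0.87 and with serp probe 2 at 0.95 over the 8 stages, which share their arrays.

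Cda5 and Cda4 are further deacetylases of the same family. The arrays of Cda5 probe 2 gave 0.28, 0.09 and 0.33 at 4-8 h, 1.15, 0.90 and 0.89 at 8-12 h, 4.38, 7.50 and 2.92 at 12-16 h, and 1.04, 1.62 and 0.03 in larvae. They gave 2.51 and 2.86 at pupal stage 1, 3.92, 3.97 and 4.85 at pupal stage 2, 2.15, 2.16 and 1.81 at pupal stage 3, and 4.10, 3.18 and 2.87 in adults. Array b at 12-16 h was the highest of all, and all 3 arrays of that stage lay above the neighbouring stages. The rise into 12-16 h was 3.93 ± 0.76 and the change to larvae -4.04 ± 0.75 (adjusted p = 0.0041 and 0.00173). Cda5 probe 1 was highest at pupal stage 2 (3.76 ± 0.50) and lowest at 4-8 h (-0.12), with an adjusted p of 0.001 in the F-test. At 12-16 h it stood at 3.39 ± 0.50, and its rise into that stage (3.10 ± 0.71) ended without array b at 8-12 h (3.21, adjusted p = 0.0574) or array b at 12-16 h (2.58, adjusted p = 0.052). The Cda5 probes correlated at 0.97 over the 8 stages.

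Cda4 had 4 probes, and 3 of them shared a profile. The arrays of Cda4 probe 2 gave 1.47, 0.54 and 1.18 at 4-8 h, 2.25, 1.77 and 2.22 at 8-12 h, 4.98, 2.89 and 6.10 at 12-16 h and 1.20, 0.33 and 0.52 in larvae. They gave 2.84 and 3.08 at pupal stage 1, 2.33, 3.20 and 2.99 at pupal stage 2, 1.21, 1.52 and -0.14 at pupal stage 3 and 3.67, 1.38 and 4.03 in adults. The 12-16 h arrays did not overlap the neighbouring stages, though array b lay just above them at 8-12 h. The change from 12-16 h to larvae was -3.97 ± 0.63 for probe 2 (adjusted p = 0.000506), -4.01 ± 0.76 for probe 3 and -2.64 ± 0.54 for probe 4. The rise of probe 2 into 12-16 h, 2.86 ± 0.64, ended without array c at 12-16 h (2.28, adjusted p = 0.0697).

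Probe 3 of Cda4 was highest at 12-16 h (4.74 ± 0.54) and lowest in larvae (0.72), with an adjusted p of 0.0135 in the F-test. Probe 4 was also highest at 12-16 h (2.90 ± 0.38) and lowest at 4-8 h (-0.19, adjusted p = 0.00425), and probe 2 lowest at pupal stage 3 (0.72, adjusted p = 0.000795). Between 12-16 h and pupal stage 2, probe 4 was lower in the pupa by -2.44 ± 0.54 (adjusted p = 0.00779) and probe 3 by -3.33 ± 0.76 (adjusted p = 0.0105), the latter call ending without array b at 12-16 h (-2.75, adjusted p = 0.0571). Probe 1 of Cda4 disagreed with the others: it ranged only from -0.996 at 12-16 h to -0.38 at pupal stage 2, passed neither the F-test (adjusted p = 0.944) nor any stage, and correlated with them at -0.54 to -0.58. Its duplicate spots differed by a median of 1.35, against 0.42 for probes 2 and 4 and 0.75 for probe 3.

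Cda9, another deacetylase, ran apart from the rest of the family. It was highest in larvae (0.56 ± 0.29, not past the test) and lowest in adults (-1.01 ± 0.29, adjusted p = 0.00868), with an adjusted p of 0.0252 in the F-test. It was also lower at pupal stage 2 (-0.82 ± 0.29). The adult call ended without array a (-1.02) or b (-0.72), and the pupal one without any of its 3 arrays.

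**Figure D3:**
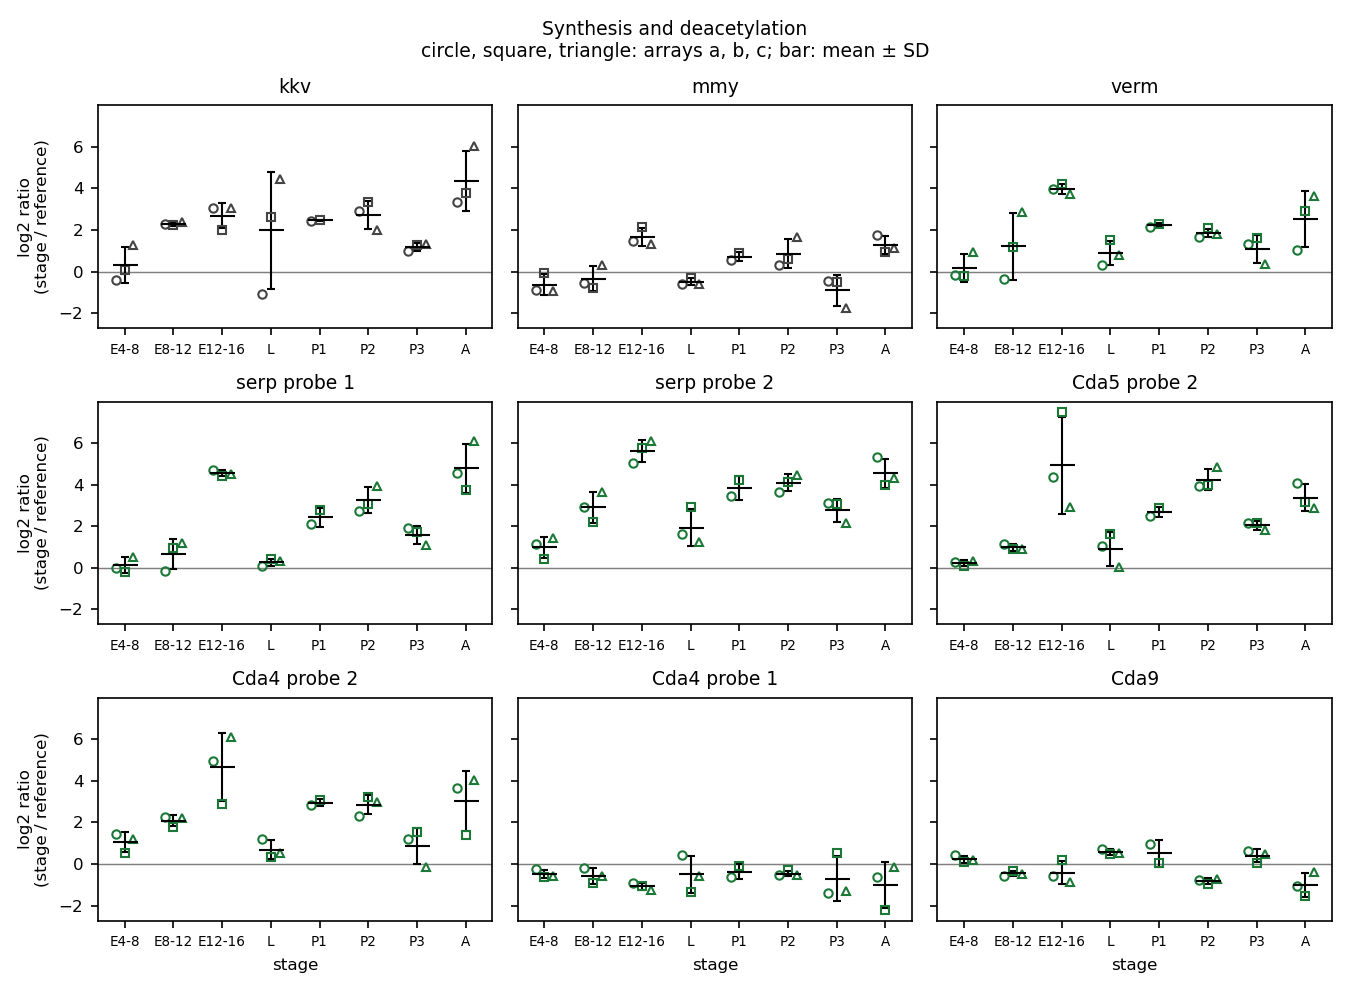
Log2 ratio of stage over 0-4 h embryo (vertical axis) on each array (circle a, square b, triangle c) at 8 stages (horizontal axis: E embryo with hours, L larvae, P pupal stage, A adults) for the 2 synthesis probes and 7 deacetylase probes, with mean ± SD. The 12-16 h points of verm and serp probe 1 lie above 3.5 and the larval points below 2, while kkv spreads from -1.08 to 4.45 in larvae.

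Among the chitin-binding proteins, obst-A, obst-B and Gasp were higher at most stages from 12-16 h on, obst-E mainly at 12-16 h, and Peritrophin-15a in larvae. The obstructor proteins and Gasp bind chitin in the cuticle and the tracheal lumen, and obst-A is known as a scaffold of the forming cuticle. At 12-16 h 4 of 11 were higher and 0 lower (all probes: 16.8% and 12.5%), and in adults 5 were higher and 1 lower (15.2% and 19.2%).

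The obst-E arrays gave -0.28, -0.47 and -0.08 at 4-8 h, -0.59, -0.15 and 0.19 at 8-12 h, 2.88, 3.81 and 3.47 at 12-16 h and -1.02, 0.50 and 0.18 in larvae. They gave 0.16 and -0.11 at pupal stage 1, 0.79, 0.81 and 0.19 at pupal stage 2, 0.88, 0.92 and 1.31 at pupal stage 3, and 1.83, 1.24 and 2.00 in adults. Every 12-16 h array lay above every array of the other 7 stages. The protein, known for its part in the shape of the larva and pupa through the larval cuticle, had RNA that rose by 3.46 ± 0.42 into 12-16 h (adjusted p = 5.95e-05). It fell by 3.50 ± 0.41 to larvae (adjusted p = 3.78e-05) and was 2.79 lower at pupal stage 2 than at 12-16 h (log2 -2.79 ± 0.41, adjusted p = 0.000251). All 3 calls held without any single array. The lowest stage value was -0.22 at 4-8 h.

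The obst-A arrays gave 0.65, 0.65 and 0.78 at 4-8 h, 1.73, 0.85 and 2.31 at 8-12 h, 2.58, 3.58 and 4.99 at 12-16 h and 0.72, 1.87 and 0.16 in larvae. They gave 4.01 and 4.40 at pupal stage 1, 2.74, 3.10 and 3.91 at pupal stage 2, 1.66, 1.54 and 0.73 at pupal stage 3 and 4.59, 3.45 and 3.75 in adults. In the order of the labels, high and low groups thus alternated, with 12-16 h, pupal stages 1 and 2 and adults high and larvae and pupal stage 3 low. The arrays labelled pupal stage 2 held adult female markers. The change to larvae was -2.80 ± 0.50 (adjusted p = 0.00128), and the rise from pupal stage 3 to adults 2.89 ± 0.51 (adjusted p = 0.00657). The rise of 2.77 ± 0.59 from larvae to pupal stage 1 (adjusted p = 0.0289) ended without larvae a (2.23) or c (2.55) or either pupal array (2.96 and 2.58). That into 12-16 h (2.35 ± 0.51) ended without 8-12 h b (2.18) or 12-16 h c (1.85). The highest value was 4.06 ± 0.36 in adults (16.7-fold) and the lowest 0.56 at 4-8 h, with an adjusted p of 4.8e-05 in the F-test.

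The Gasp arrays gave -0.70, 0.26 and 0.51 at 4-8 h, 1.40, 0.55 and 2.27 at 8-12 h, 2.27, 3.58 and 4.63 at 12-16 h, and -1.55, 1.82 and 3.63 in larvae. They gave 1.59 and 2.54 at pupal stage 1, 3.99, 3.74 and 3.13 at pupal stage 2, 2.79, 3.42 and 3.24 at pupal stage 3 and 3.25, 3.48 and 4.27 in adults. From pupal stage 2 on the stages overlapped one another, and the larval arrays spanned nearly the whole range. Gasp, a chitin-binding protein of the tracheal lumen, was higher at 5 stages, most in adults (3.58 ± 0.62, adjusted p = 0.000132), and lowest at 4-8 h (0.11). Its F-test gave an adjusted p of 0.0272. The call at pupal stage 1 (2.31 ± 0.79) ended without array a (2.79) or b (1.84).

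Peritrophins are named after chitin-binding proteins of the midgut lining, first described in the sheep blowfly Lucilia cuprina. The Peritrophin-15a arrays gave 0.35, 0.70 and 0.96 at 4-8 h, 0.54, 1.41 and 0.51 at 8-12 h, 1.54, -0.46 and 0.83 at 12-16 h, and 1.68, 3.81 and 5.42 in larvae. They gave 0.09 and -1.05 at pupal stage 1, 0.75, 0.84 and 0.30 at pupal stage 2, -1.11, -0.72 and 0.94 at pupal stage 3, and -0.23, 1.75 and 2.37 in adults. All 3 larval arrays lay above both neighbouring stages, though adult arrays b and c lay above larvae a, and at every stage except larvae the probe missed the test. The larval value was 3.43 ± 0.46 (adjusted p = 1.98e-05, 10.8-fold), and the rise from 12-16 h 3.00 ± 0.65 (adjusted p = 0.00579). The change to pupal stage 1 was -3.30 ± 0.76 (adjusted p = 0.0421), a call that ended without larvae b (-3.40), larvae c (-2.69), pupal stage 1 a (-3.87) or pupal stage 1 b (-2.73). The lowest value was -0.09 at pupal stage 3, with an adjusted p of 0.0121 in the F-test.

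The neighbouring gene Peritrophin-15b had a profile of its own, correlating with Peritrophin-15a at 0.12 over the 8 stages. Its highest value was 2.19 ± 0.58 at pupal stage 1 (arrays 3.61 and 0.31), a call that ended without array a (0.55), and its lowest -0.50 at 12-16 h. It missed the F-test (adjusted p = 0.180). Peritrophin-A, next to obst-A in the genome, ranged from -0.22 in larvae to 0.99 at pupal stage 1 (adjusted p = 0.388 in the F-test), and its adult value of 0.88 ± 0.31 ended without array a (0.96) or c (0.56).

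The other obstructor genes encode related chitin-binding proteins. The obst-B probe was highest at 12-16 h (4.04 ± 0.49, arrays 5.32, 2.12 and 4.81) and lowest at 4-8 h (0.82), with an adjusted p of 0.0164 in the F-test. Its rise into 12-16 h (2.93 ± 0.69) ended without 8-12 h a (2.43), 8-12 h b (3.03) or 12-16 h c (2.31), and its fall to larvae (log2 -2.61 ± 0.68) without 12-16 h a (-2.02), 12-16 h c (-2.07), larvae a (-2.06) or larvae c (-2.58). The obst-F probe was highest in larvae (1.26 ± 0.36) and lowest in adults (-1.16 ± 0.36), with an adjusted p of 0.0238 in the F-test. Its larval call ended without array b (1.14) or c (1.15), and its adult call without a (-1.14) or b (-0.996). The F-test was missed by obst-G (from -0.48 at 12-16 h to 1.15 at pupal stage 1, adjusted p = 0.800), obst-I (from -0.998 at 12-16 h to 1.72 at pupal stage 1, adjusted p = 0.257) and obst-J (from -0.69 in larvae to 0.48 in adults, adjusted p = 0.594). The obst-I value at pupal stage 3, 1.62 ± 0.59, ended without array a (1.87) or c (0.62).

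Chitinases cleave chitin, and Cht5 and Cht10 are the classes known for the digestion of old cuticle at the moult. Both were highest at pupal stage 1. They parted in the later stages: Cht5 stood at 4.94 in adults, the Cht10 probes between -0.85 and 0.42. Over the 8 stages Cht5 and Cht10 probe 1 correlated at 0.17.

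The Cht5 arrays gave 0.76, 0.51 and 0.70 at 4-8 h, 1.64, 0.70 and 1.68 at 8-12 h, 2.26, 3.50 and 1.84 at 12-16 h, 0.35, 1.14 and 0.94 in larvae, and 5.31 and 5.31 at pupal stage 1. They gave 1.89, 1.88 and 3.10 at pupal stage 2, 2.84, 2.63 and 2.42 at pupal stage 3, and 5.29, 4.96 and 4.48 in adults. The pupal stage 1 and adult arrays lay above all others, and the larval arrays below all those of 12-16 h and of each pupal stage. Cht5 was higher than the reference by 5.22 ± 0.43 at pupal stage 1 (n = 2, adjusted p = 3.32e-07, 37.3-fold) and by 4.94 ± 0.33 in adults (adjusted p = 3.68e-09).

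From larvae to pupal stage 1 Cht5 rose by 4.38 ± 0.55 (adjusted p = 0.000542, 20.8-fold), the only one of the 3 calls of that step that held without any single array. It fell by 2.90 ± 0.55 to pupal stage 2 (adjusted p = 0.0171), a call that ended without pupal stage 1 a (-2.90), pupal stage 2 a (-2.75) or pupal stage 2 b (-2.75). From pupal stage 3 to adults it rose by 2.34 ± 0.48 (adjusted p = 0.0166), which ended without any array of pupal stage 3 (2.28 to 2.41), adult a (2.16) or adult b (2.29). The fall from 12-16 h to larvae (log2 -1.72 ± 0.47) ended without 12-16 h b (-1.19), larvae a (-1.38) or larvae c (-1.82). The lowest stage value was 0.63 at 4-8 h.

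The arrays of Cht10 probe 1 gave 0.35, 0.45 and 0.29 at 4-8 h, 1.84, 1.37 and 2.55 at 8-12 h, 3.22, 3.65 and 3.31 at 12-16 h, 0.97, 4.05 and 2.83 in larvae, and 5.01 and 4.62 at pupal stage 1. They gave 2.82, 2.63 and 3.23 at pupal stage 2, 0.43, 0.49 and -0.18 at pupal stage 3, and -0.49, -0.65 and -0.15 in adults. The probe thus stood high from 12-16 h to pupal stage 2 and near the reference afterwards, and no array of the last 2 stages reached any of the earlier ones from 8-12 h on. Its value at pupal stage 1 was 4.86 ± 0.50 (n = 2, adjusted p = 2.71e-06, 29.0-fold). The fall of 2.62 ± 0.56 from pupal stage 2 to 3 (adjusted p = 0.0483) was the 1 call of that step, and it ended without any of the 6 arrays (-2.29 to -2.76, adjusted p from 0.123 to 0.35).

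The arrays of Cht10 probe 2 gave 0.63, 0.56 and 0.16 at 4-8 h, 1.92, 1.68 and 2.77 at 8-12 h, 3.08, 4.10 and 3.00 at 12-16 h, 1.52, 3.31 and 2.60 in larvae, and 4.37 and 4.44 at pupal stage 1. They gave 2.54, 1.07 and 3.19 at pupal stage 2, 0.15, 0.13 and -0.66 at pupal stage 3, and -0.42, -1.17 and -1.12 in adults. Like probe 1 it was highest at pupal stage 1 (4.26 ± 0.49) and lowest in adults (-0.85 ± 0.39). Its change from pupal stage 2 to 3, -2.49 ± 0.55, missed the threshold (adjusted p = 0.0593). Cht10 probe 3 ranged from 0.36 at pupal stage 3 to 4.40 ± 0.66 at pupal stage 1 (adjusted p = 0.00927 in the F-test), and its arrays c of pupal stage 3 and of adults, at 2.21 and 2.43, lay above the others. The 3 probes of Cht10 correlated at 0.94 to 0.99.

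Cht7, a membrane-associated chitinase of the cuticle-forming cells, had arrays of 0.35, -0.03 and 0.46 at 4-8 h, 1.47, -0.03 and 0.64 at 8-12 h, 2.14, 4.95 and 5.24 at 12-16 h, and 1.73, 2.21 and 0.98 in larvae. They gave -1.35 and -0.54 at pupal stage 1, 1.06, 1.09 and 2.88 at pupal stage 2, -1.24, -1.61 and -0.09 at pupal stage 3, and 1.02, 2.92 and 4.59 in adults. In the order of the labels, low groups at pupal stages 1 and 3 thus lay between higher ones, though the arrays labelled pupal stage 2 held adult female markers. The stage value was 4.12 ± 0.60 at 12-16 h (adjusted p = 2.34e-05) and -0.99 at pupal stage 3, and the F-test gave an adjusted p of 0.00321. The rise into 12-16 h, 3.43 ± 0.85 (adjusted p = 0.0217), ended without 8-12 h b (2.97) or c (3.39) or 12-16 h b (3.02) or c (2.69). The rise of 3.84 ± 0.85 from pupal stage 3 to adults (adjusted p = 0.0284) ended without any array of pupal stage 3 (3.53 to 4.45), adult b (3.79) or adult c (2.99). The duplicate spots of Cht7 differed by a median of 1.62, the most of the 41 probes.

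Cht4, Cht8, Cht9 and Cht12 belong to the chitinase class known mainly from the gut, and they lie side by side in the genome in the order Cht8, Cht12, Cht4 and Cht9 with no other protein-coding gene between them. Their profiles differed: Cht8 and Cht12 were highest in adults, Cht9 in larvae, and Cht4 passed at no stage. Cht12 reached 3.87 ± 0.57 in adults (arrays 2.71, 3.03 and 6.11, adjusted p = 2.5e-05) from -0.19 at 8-12 h, with an adjusted p of 0.00962 in the F-test. Cht8 reached 1.77 ± 0.38 in adults (adjusted p = 0.000964) from -0.99 at 4-8 h, with an adjusted p of 0.00867 in the F-test. Cht12 and Cht8 correlated at 0.88 over the 8 stages, Cht12 and Cht4 at -0.47.

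Cht9 stood at 2.13 ± 0.39 in larvae (arrays 1.27, 2.65 and 2.80, adjusted p = 0.000477) and at -1.33 ± 0.39 at 12-16 h (arrays -0.50, -2.46 and -0.70, adjusted p = 0.0136). The difference of 3.46 ± 0.55 held without any single array (adjusted p = 0.000481), while the lower value at 12-16 h ended without array b (-0.60). Its F-test gave an adjusted p of 0.00407. Cht4 ranged from -1.07 at pupal stage 2 to 0.71 at pupal stage 1 (adjusted p = 0.730 in the F-test).

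The remaining chitinases varied little. Cht6 ranged from 0.01 at 4-8 h to 1.21 ± 0.31 at 12-16 h (adjusted p = 0.361 in the F-test), and its call at 12-16 h ended without array c (1.04). Cht2, known for a part in larval cuticle organisation, ranged from -1.64 ± 0.36 at pupal stage 3 (adjusted p = 0.00156) to -0.44 at 4-8 h (adjusted p = 0.402 in the F-test). It was also lower at 12-16 h (-1.33 ± 0.36), a call that ended without array c (-0.82). Cht11 ranged from -0.70 at pupal stage 2 to 0.52 at pupal stage 1 and passed at no stage (adjusted p = 0.479 in the F-test).

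**Figure D4:**
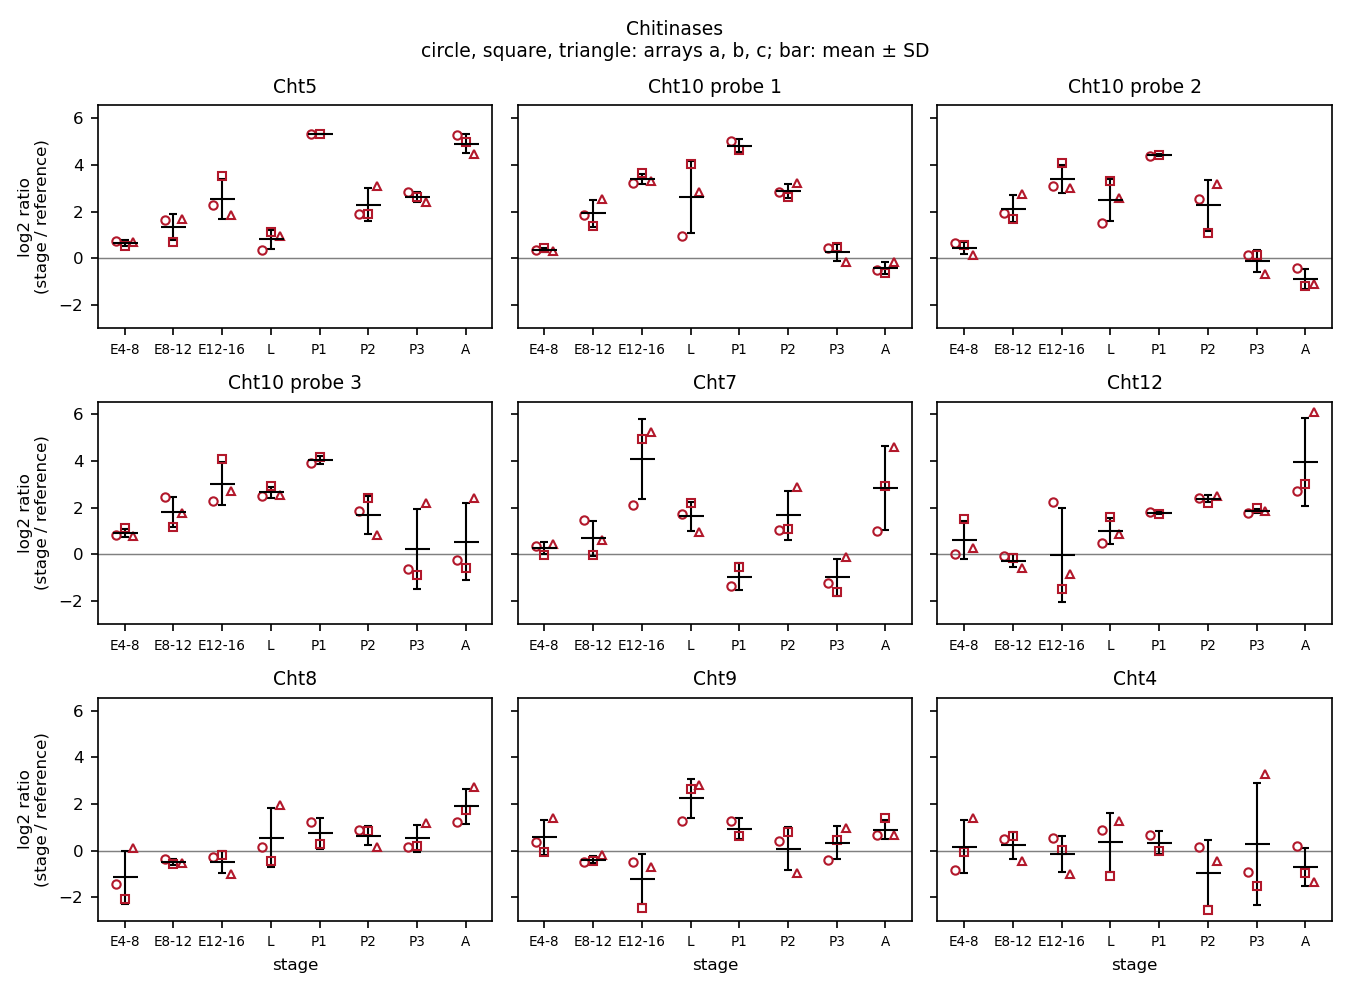
Log2 ratio of stage over 0-4 h embryo (vertical axis) on each array (circle a, square b, triangle c) at 8 stages (horizontal axis, labelled as E, L, P and A) for 9 chitinase probes, with mean ± SD. Cht5 and the Cht10 probes peak at pupal stage 1, where Cht5 lies at 5.31 on both arrays, and in adults Cht5 lies between 4.48 and 5.29 while Cht10 probes 1 and 2 lie below 0.

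The imaginal disc growth factors, secreted relatives of chitinases that promote the growth of disc cells in culture, did not share 1 profile. At 12-16 h 4 of 6 were higher (Idgf2, Idgf3, Idgf5 and Idgf6), where 16.8% of all probes were. From 8-12 h to 12-16 h 4 rose (Idgf2, Idgf4, Idgf5 and Idgf6), where 3.98% of all probes did. At pupal stage 1, Idgf4 and Idgf6 were lower and Idgf3 higher. The genes Idgf1, Idgf2 and Idgf3 are neighbours in the genome, and their profiles correlated at 0.11 (Idgf1 and Idgf2), 0.54 (Idgf2 and Idgf3) and 0.24 (Idgf1 and Idgf3).

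The Idgf3 arrays gave -1.23, 0.33 and 0.49 at 4-8 h, 1.19, 3.26 and 0.76 at 8-12 h, 5.57, 4.23 and 2.23 at 12-16 h, and 1.54, 3.06 and 2.24 in larvae. They gave 1.21 and 1.92 at pupal stage 1, 1.10, 1.41 and 2.43 at pupal stage 2, 2.37, 2.55 and 1.68 at pupal stage 3, and 2.88, 2.31 and 3.18 in adults. All stages after 4-8 h lay above it on every array, and most overlapped one another. Idgf3 was higher at 7 of 8 stages, most at 12-16 h (3.89 ± 0.50, adjusted p = 5.95e-06, 14.8-fold), and lowest at 4-8 h (-0.02), with an adjusted p of 0.0213 in the F-test. It was lower at pupal stage 2 than at 12-16 h by -2.36 ± 0.70 (adjusted p = 0.0454), a call that ended without 12-16 h a (-1.67) or b (-2.37) or pupal stage 2 a (-1.96) or b (-2.12). The calls at 8-12 h (1.85 ± 0.50), pupal stage 1 (1.92 ± 0.64) and pupal stage 2 (1.53 ± 0.50) also ended without 1 array, at the lowest 1.20 without 8-12 h b, 1.56 without pupal stage 1 b and 0.75 without pupal stage 2 c.

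The Idgf6 arrays gave -0.41, -0.05 and -1.36 at 4-8 h, -1.37, -0.71 and -0.92 at 8-12 h, 2.63, 0.73 and 1.30 at 12-16 h, and -0.09, -1.16 and -0.95 in larvae. They gave -2.32 and -1.35 at pupal stage 1, -0.10, -0.21 and 0.75 at pupal stage 2, 0.30, 0.14 and -0.68 at pupal stage 3, and -0.78, -2.01 and -1.68 in adults. The 12-16 h arrays lay above both neighbouring stages, and the pupal stage 1 arrays below those of the later pupae. Idgf6 rose by 2.75 ± 0.50 into 12-16 h (adjusted p = 0.00262) and fell by 2.29 ± 0.49 to larvae (adjusted p = 0.00579). It was lower than the reference at pupal stage 1 (-2.13 ± 0.45, n = 2, adjusted p = 0.00172; -1.65 without array a, adjusted p = 0.104) and in adults (-1.39 ± 0.35, adjusted p = 0.00391). The value at 12-16 h, 1.65 ± 0.35, became -0.0267 without centring, where the rise into that stage missed the test as well.

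The Idgf5 arrays gave -0.38, -0.48 and -0.34 at 4-8 h, -0.92, -0.14 and -0.05 at 8-12 h, 1.45, 1.98 and 2.44 at 12-16 h, 0.35, 0.79 and 0.71 in larvae, and -0.40 and 0.48 at pupal stage 1. They gave 2.22, 2.31 and 2.13 at pupal stage 2, 1.15, 1.19 and 1.23 at pupal stage 3, and 2.46, 2.42 and 4.41 in adults. The groups at 12-16 h, pupal stage 2 and adults were the high ones. Idgf5 was highest in adults (3.07 ± 0.34, adjusted p = 9.28e-07) and lowest at 4-8 h (-0.37), with an adjusted p of 0.000217 in the F-test, and it rose by 2.27 ± 0.48 into 12-16 h (adjusted p = 0.00815).

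The Idgf2 arrays gave -0.56, -0.14 and 0.08 at 4-8 h, -0.98, -1.52 and -0.49 at 8-12 h and 0.51, 2.68 and 1.45 at 12-16 h, and the last 2 of these groups did not overlap. They gave 0.42, 0.55 and 0.16 in larvae, -1.11 and -0.36 at pupal stage 1, 0.19, 0.43 and 1.28 at pupal stage 2, 1.44, 1.56 and 0.52 at pupal stage 3, and 0.78, -0.60 and -0.15 in adults. Idgf2 rose by 2.71 ± 0.51 into 12-16 h (adjusted p = 0.0034), where it was highest (1.63 ± 0.36), from its lowest value of -1.08 at 8-12 h, with an adjusted p of 0.0067 in the F-test. Without centring its 12-16 h value was -0.0488. Its call at pupal stage 3 (1.09 ± 0.36) ended without array a (1.04) or b (0.98).

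Idgf4 was highest at 12-16 h (0.64 ± 0.32, not past the test) and lowest at pupal stage 1 (-1.52 ± 0.41, adjusted p = 0.00952; -1.02 without array a), with an adjusted p of 0.0157 in the F-test. Its rise of 1.71 ± 0.45 into 12-16 h ended without 8-12 h a (1.80), b (1.97) or c (1.44) or 12-16 h b (1.42). Idgf4 and Idgf6 correlated at 0.89 over the 8 stages. Idgf1 was highest at pupal stage 3 (2.22 ± 0.36, arrays 1.82, 2.00 and 2.40, adjusted p = 9.33e-05) and lowest at 4-8 h (0.22), and missed the F-test (adjusted p = 0.0951). It was also higher in adults (1.43 ± 0.36; 1.08 without array a, adjusted p = 0.0981) and in larvae (1.16 ± 0.36; 1.02 without array b, 1.10 without c).

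**Figure D5:**
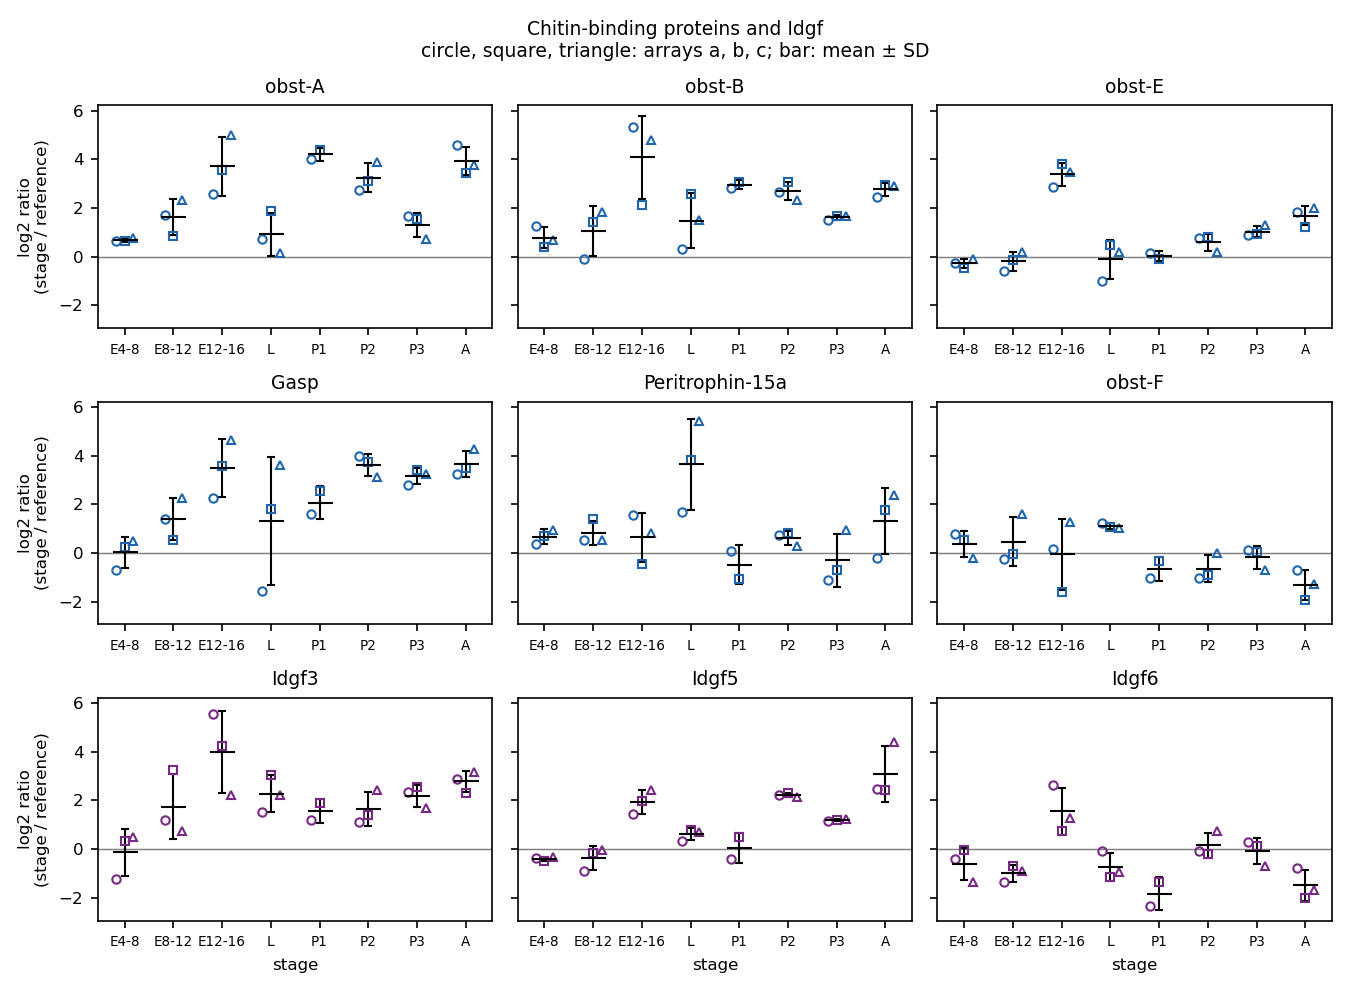
Log2 ratio of stage over 0-4 h embryo (vertical axis) on each array (circle a, square b, triangle c) at 8 stages (horizontal axis, labelled as E, L, P and A) for 6 chitin-binding and 3 growth factor probes, with mean ± SD. The obst-E points at 12-16 h, from 2.88 to 3.81, lie above those of all other stages, Peritrophin-15a stands out in larvae, and Idgf6 lies at -2.32 on 1 array of pupal stage 1.

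Genes of the same processes outside the named families were read from fixed lists. Of 9 probes for trehalose and glucose conversion and precursor synthesis, 7 passed the F-test. Among all probes 21.0% did, and among those with 1 symbol 27.7%. In adults 6 of the 9 were higher, where 15.2% of all probes were. The widest ranges were those of Tps1, the enzyme of trehalose synthesis (3.62 ± 0.33 in adults, adjusted p = 1.09e-07), the hexokinases Hex-C (3.42 ± 0.37) and Hex-A (1.01 ± 0.34, also in adults), and nst, which makes N-acetylglucosamine-1-phosphate (1.79 ± 0.52 at 12-16 h and -2.23 ± 0.66 at pupal stage 1, and not past the test in adults). Of 5 probes for other genes of chitin formation, 4 were higher at 12-16 h, where 16.8% of all probes were. The zona pellucida protein gene dyl stood at 5.87 ± 0.69 and 6.04 ± 0.47 there on its 2 probes, and reb, needed together with its relative exp for chitin deposition, at 3.15 ± 0.38. Chs2, the second chitin synthase and known from the midgut, was higher at 8-12 h alone among the 8 stages (2.44 ± 0.43, adjusted p = 0.00097).

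Of 18 probes for other chitin-binding and mucin-related proteins, 8 passed the F-test (21.0% of all probes, 27.7% of those with 1 symbol). Of the 18, 7 were higher in larvae (8.76% of all probes) and 7 at pupal stage 2 (9.30%). The widest ranges were those of Mur18B (5.08 ± 0.52 in adults), Muc11A (3.94 ± 0.73 and 3.06 ± 0.36 in adults on 2 probes), Muc55B (2.96 ± 0.38 at 12-16 h and -1.51 ± 0.38 at pupal stage 2) and Muc68D (3.72 ± 0.42 in adults). Neither of the 2 hexosaminidase probes, Hexo2 and fdl, passed the F-test, though fdl was lower than the reference at all 8 stages (-0.93 to -1.90). Of 23 probes for septate junction genes, which like the deacetylases act on tracheal tube length, 11 passed the F-test. Among all probes 21.0% did, and among those with 1 symbol 27.7%. Against the reference, 3 were higher and 1 lower at 4-8 h (all probes: 1.49% and 5.94%). The counts were 4 and 1 at 8-12 h (3.83% and 5.71%) and 8 and 1 at 12-16 h (16.8% and 12.5%). In larvae 2 were higher and 5 lower (8.76% and 14.7%). At pupal stage 1 the counts were 1 and 5 (7.58% and 16.2%), and at pupal stage 2 4 and 4 (9.30% and 16.0%). At pupal stage 3 they were 3 and 9 (9.53% and 19.5%), and in adults 1 and 9 (15.2% and 19.2%). The widest ranges were those of cora (3.75 ± 0.50 at 12-16 h, F-test adjusted p = 0.0783), nrv2 (3.67 ± 0.29 at 12-16 h), cold (-2.17 ± 0.48 in adults) and Gli (1.97 ± 0.36 at 12-16 h). Of 9 probes for tracheal and epidermal regulators, 3 passed the F-test, a share close to the 27.7% of all probes with 1 symbol. In larvae 0 were higher and 5 lower (all probes: 8.76% and 14.7%), and in adults 1 and 6 (15.2% and 19.2%). The widest ranges were those of rib (2.36 ± 0.34 at 8-12 h and -2.55 ± 0.34 in adults), vvl (2.37 ± 0.44 at 12-16 h), grh on 1 of its 3 probes, and btl (1.68 ± 0.45 in adults), which missed the F-test (adjusted p = 0.235).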

How the data were processed

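The deposited values were ratios of the 2 channels of each spot, as log2 numbers, in tables the authors made from scanned arrays. Per the labels' protocols, an array entered only if its duplicate spots differed little enough. The tables used hold no channel intensities, and background correction and normalization within an array are not given in the labels. Each array had its own median, from -1.89 to 2.38. Values at the limits of the ratio (0.001 and 100000, 633 values or 0.0578%) were set to missing. Duplicate spots were averaged (47616 spots, 23808 probes), arrays with the stage in Cy3 were turned in sign (132 of 132 pairs of opposite dye correlated below 0 before, and the lowest correlation after was 0.05), and each array was centred on its median. Of 24 arrays 23 held ratios. 0 value columns belonged to no sample. No spot counts or intensities were given, so depth is unknown and the number of arrays limits the precision.

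A linear model with 8 stages and a dye term was fitted across all 23808 probes with limma 3.58.1 in R 4.3.3 (14 residual and 5.71 prior degrees of freedom). All tests were two-sided, and p-values were adjusted by Benjamini-Hochberg over the whole set of probes, with a threshold of 0.05. The dye term passed for 3632 of all 23808 probes and for 7 of the 41 chitin probes (Peritrophin-15a, Peritrophin-A, obst-F, obst-I, Cht2, Idgf1 and Idgf4). The pipeline was tested on simulated data. The members and gene lists were chosen with earlier results of these data known. Every member is named, with values of each array for up to 4 probes of the widest range per role. Values of each array for verm, and at single stages for obst-B, Peritrophin-15b, Cht9, Cht12, Cht10 probe 3 and Idgf1, were added after their values were seen. The letters a to c do not pair arrays: deviations of same-letter arrays had a median correlation of -0.03 (77 pairs), those of different letters 0.01 (154 pairs). Alternatives changed centring, scaling, the dye term, blocks, duplicate spots and arrays used. Each fit to only the arrays compared also had no dye term. Leaving out 4 arrays, or pupal stage 2, was chosen after seeing the data. Genome neighbours are those of the RefSeq gene table (assembly Release 6 plus ISO1 MT), which named all 34 genes. Sequences were not used here.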

Additional observations from a re-analysis of the deposited data

Results flagged for a closer look

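The chitinase gene Cht9 stood above the 0-4 h embryo in larvae and below it at 12-16 h, with a tested difference of 3.46 ± 0.55 (SE, n = 3 arrays a stage, limma adjusted p = 0.000481), from 2.13 against -1.33. The direction was the same under all alternatives (2.70 to 4.03), and the call ended with close duplicate spots only and with only the arrays compared in the fit. The precursor enzyme gene mmy stood above the reference in adults (1.37) and below it at pupal stage 3 (-0.99), a difference of 2.36 ± 0.44 (adjusted p = 0.0092). The direction was again the same under all alternatives (2.04 to 2.49). That call ended without centring, with scaled arrays, with near-identical arrays averaged, without array c of pupal stage 3 (2.04) and with only the arrays compared.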

How the results depend on the processing

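Shares of all probes under the alternatives are not given in this report, so counts of chitin probes under an alternative cannot be judged against them. Counts of chitin probes past the test moved by over 1.5 times in these cases. Without centring, 8-12 h had 4, larvae 7, pupal stage 1 13 and pupal stage 3 6; the step into 12-16 h had 0, that to larvae 8, the later steps 0 each, and pupal stage 2 against 12-16 h had 1. With centred and scaled arrays, 4-8 h had 4, 8-12 h 19, the step into 8-12 h 1, into 12-16 h 8, to larvae 10, pupal stage 1 to 2 0, pupal stage 2 to 3 4, to adults 0, and pupal stage 2 against 12-16 h 2. With close duplicate spots only, 4-8 h had 5, larvae 19, and these steps 1 (into 8-12 h), 3, 5 and 8 (pupal stage 1 to 2, 2 to 3, to adults) and 9 (pupal stage 2 against 12-16 h). The near-identical pupal arrays averaged gave 7 at pupal stage 3, and 1, 0, 0 and 1 in the steps from larvae on, and 1 for pupal stage 2 against 12-16 h. The 4 narrow arrays as a block gave 1 at 4-8 h and 4 from pupal stage 2 to 3. Leaving them out, chosen after seeing the data, gave 6 at 8-12 h, 10 into 12-16 h, 1 from larvae to pupal stage 1 and 0 from pupal stage 1 to 2. Without a dye term pupal stage 2 to 3 had 0. With only the arrays compared, and no dye term, 8-12 h had 4, larvae 0, pupal stage 1 9, and every difference between stages 0. The replicate block on array letters gave 5 at 8-12 h, 7 in larvae, 11 at pupal stage 3 and 0 from pupal stage 2 to 3, and 30 for the F-test.

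Leaving out single arrays gave, against the reference, 0 at 4-8 h, 4 to 8 at 8-12 h, 24 to 26 at 12-16 h, 7 to 14 in larvae, 10 to 15, 13 to 16 and 10 to 13 at pupal stages 1 to 3, and 19 to 23 in adults. Between stages it gave 0 into 8-12 h, 11 to 16 into 12-16 h, 14 to 20 to larvae, 1 to 3, 0 to 3, 0 to 1 and 2 to 5 in the later steps, 3 to 6 for pupal stage 2 against 12-16 h, and 27 to 30 for the F-test.

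The value at the highest stage changed sign without centring for Peritrophin-A (-0.44), obst-G (-0.28), obst-J (-0.0724), Cht11 (-0.91), Cht2 (0.19), Cht4 (-0.72), Cht6 (-0.47), Cda9 (-0.58), Idgf2 (-0.0488), Idgf4 (-1.03) and Idgf6 (-0.0267). It also did so for obst-G without pupal stage 1 a (single arrays left out: -0.90 to 3.20), Cht2 without 4-8 h c (-0.74 to 0.0904) and Cht4 with close duplicate spots (-0.15). The F-test count lay between 23 and 30 in all alternatives; without centring and without the 4 narrow arrays it was 23. The causes were not tested. With 2 or 3 arrays a stage, and no intensities, small differences are not detectable here.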
